A study of Mus musculus with 33 samples.

Results

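Nerve, sympathetic and glial transcripts were followed in whole mouse kidneys that carried 0, 1 or 2 intact copies of Six2, to ask whether they were all raised by the same factor where both copies were lost. The 28 genes were taken by symbol from the deposited count table and all 28 were found among its 35349 gene symbols. They comprise 4 sympathetic transcription factors (Phox2a, Hand2, Isl1, Insm1), 2 enzymes of noradrenaline synthesis (Th, Dbh), 3 granule and peptide genes (Chga, Chgb, Cartpt), 6 general neuronal genes (Tubb3, Stmn2, Stmn3, Elavl3, Elavl4, Gap43), 4 neuronal intermediate filaments (Prph, Nefl, Nefm, Nefh), 2 genes of synaptic release (Syt1, Snap25), 2 neurotrophin receptors (Ngfr, Ntrk3) and 5 glial or neural crest genes (Sox10, Foxd3, Erbb3, Fabp7, S100b).

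RNA was sequenced from 24 specimens in 33 libraries. At embryonic day 11.5 (E11.5) there were 5 Six2 knockout (KO), 5 heterozygous (HET) and 6 wild-type (WT) kidneys, and at E15.5 there were 4 HET and 4 WT kidneys. The labels give genotype and age but name neither the mutant allele nor the strain, and do not say whether a specimen is 1 animal or a pool, so a p-value here weighs a difference against specimen-to-specimen spread, which may be technical. E11.5 embryos are numbered 1 to 5 or 6 within a genotype. KO, HET and WT embryos were spread over 2 batches, which equal the replicate number in the titles, and HET embryo 1 was run in both. KO embryo 5 was male and the other KO embryos female. HET embryos 1 to 3 and WT embryos 2 and 4 were male, and the other HET and WT embryos female. In batch 1 all KO embryos were thus female and all HET embryos male. At E15.5 HET specimen 4 and WT specimen 6 were female and the rest male. The fits took sex as a covariate and the ratio tests did not.

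Nerve tissue reaches the kidney from outside. Neural crest cells that gather beside the dorsal aorta turn on Phox2 and Hand2 factors and become noradrenergic neurons or chromaffin cells of the adrenal medulla, while other crest cells keep Sox10 and become the glia that ensheath the nerves. At the age when the ureteric bud has just entered the metanephric mesenchyme, sympathetic precursors lie along the aorta. How near they lay to the dissected kidneys was not measured. Several of the genes are also known outside nerve: Ngfr in kidney mesenchyme and Erbb3 in kidney epithelium. In whole tissue, fewer cells of a type and less RNA per cell cannot be told apart.

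Libraries held 10819256 to 42073021 counts. Six2 itself was at 0.291 to 0.666 CPM (counts scaled to library size, with 1 scaling over all specimens) in KO, 9.9 to 17.0 CPM in HET and 19.5 to 33.1 CPM in WT embryos at E11.5, and at 5.69 to 6.51 CPM in HET and 11.01 to 12.77 CPM in WT specimens at E15.5. Ribosomal RNA genes took more than 5% of the counts in WT embryos 1 to 3, HET embryo 3, KO embryo 2 and the batch 1 run of HET embryo 1. WT embryos 1 to 3, at 21.9, 20.5 and 26.6%, are all the WT embryos of batch 1. KO embryos 1 and 3 of that batch were at 0.88 and 1.52%. A KO over WT fold change in batch 1 alone thus sets ribosomal-rich WT embryos against KO embryos of mixed ribosomal content. Leaving out such libraries leaves no WT embryo of batch 1. WT embryo 6 stood apart by markers of spinal cord and dorsal root ganglion, and WT specimen 5 at E15.5 by Th, Dbh and the granin genes Chga and Chgb.

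In KO over WT kidneys at E11.5, 27 of the 28 genes had enough counts to be tested (S100b did not). None was called higher and 1, Ngfr, was called lower by edgeR's quasi-likelihood test at an adjusted p of 0.05 over 16141 genes, of which 7.09% were called in either direction, 3.06% higher and 4.03% lower. At an unadjusted p under 0.05 there were 9 of the 27 genes, where 20.2% of all genes tested were. The fold changes were positive for 23 of 27, with a median log2 fold change of 0.41, against -0.00 over all genes tested, of which 49.5% were positive. By role, the median was 0.76 for the 4 sympathetic transcription factors, 0.83 for the 2 noradrenaline enzymes, 0.84 for the 3 granule and peptide genes, 0.44 for the 4 filaments, 0.22 for the 6 general neuronal genes, 0.29 each for the 2 synaptic and the 4 tested glial genes, and -0.74 for the 2 neurotrophin receptors. DESeq2 on the same model called 1 gene higher, Insm1. The medians by role rest on genes whose values moved with single WT embryos. Without WT embryo 6, Tubb3 was at 0.72, Elavl3 at 0.60, Foxd3 at 0.65, Fabp7 at 0.62 and Erbb3 at 0.52. In that fit Hand2 was at 0.49 and Elavl4 at -0.20. Without WT embryo 1, Tubb3 was at 0.15, Elavl3 at -0.11, Foxd3 at 0.069, Fabp7 at -0.62 and Erbb3 at 0.13.

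**Figure D1:**
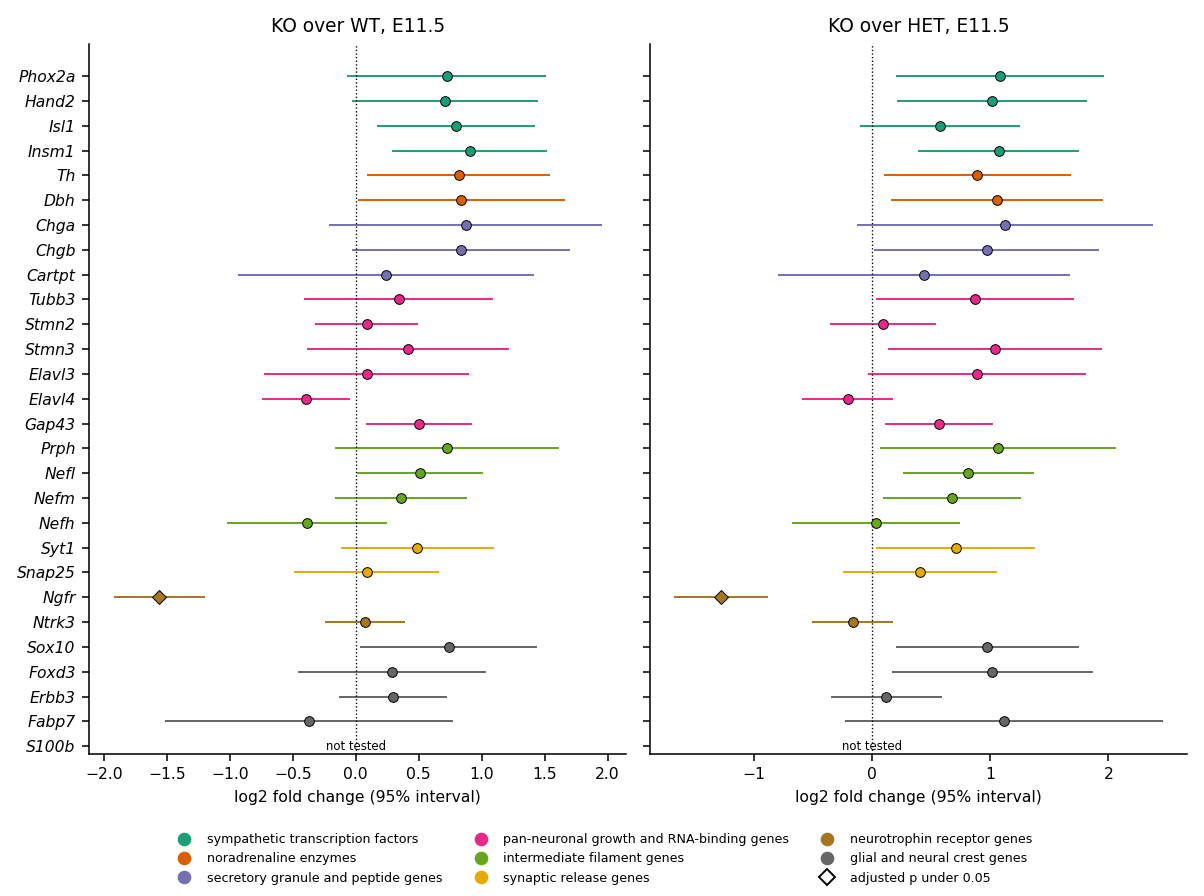
Log2 fold change with its 95% interval for each of the 27 genes tested, in KO over WT (left) and KO over HET (right) kidneys at E11.5, coloured by the gene's role. Diamonds mark the genes past an adjusted p of 0.05, which are Ngfr in both panels, at -1.56 and -1.28. The sympathetic transcription factors, enzymes and granins lie between 0.57 and 1.13, while Stmn2 lies near 0 in both panels.

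Ngfr encodes the p75 neurotrophin receptor, which binds all neurotrophins with low affinity and marks migrating neural crest and Schwann cell precursors. It lies on chromosome 11 at 95568818 to 95587735, minus strand (GENCODE on GRCm38, the same assembly as mm10). It measured 27.5, 27.1, 20.9, 32.8 and 33.9 CPM in the 5 KO embryos. In HET embryos it measured 81.5, 76.4, 80.1, 65.2 and 66.8 CPM, and in WT embryos it ran from 45.4 through a median of 85.04 to 128.8 CPM. Every KO embryo lay below every HET and every WT embryo, while 2% of all genes were lower without overlap against WT and 2.63% against HET. The means were 28.4 ± 5.204 CPM in KO (SD, n = 5), 74.0 ± 7.56 CPM in HET (SD, n = 5) and 87.5 ± 26.9 CPM in WT (SD, n = 6). The log2 fold change of KO over WT was -1.56 ± 0.17 (SE, edgeR adjusted p = 1.77e-05), with -1.36 in batch 1 alone and -1.64 in batch 2 alone. KO over HET gave -1.28 ± 0.19 (edgeR adjusted p = 7.37e-04), but that call did not pass in batch 1 alone (-1.25, adjusted p = 0.229), in batch 2 alone (-1.11, adjusted p = 0.0581) or with the title prefix, a number shared by some embryos of different genotypes, as a block in place of batch (-0.63, adjusted p = 0.15). All KO embryos of batch 1 were female and all its HET embryos male. A KO over HET value in batch 1 alone thus rests on a sex term set by WT embryos only. Per kilobase of gene model Ngfr had the highest mean of the 28 in WT kidneys, at 25.4 CPM per kb at E11.5 and 13.2 CPM per kb at E15.5.

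The other neurotrophin receptor, Ntrk3 or TrkC, is the receptor of neurotrophin 3. Ntrk3 measured 13.1, 23.6, 12.6, 14.4 and 12.2 CPM in KO embryos. HET embryos had 15.4, 17.7, 16.3, 13.7 and 16.6 CPM, and WT embryos 9.82 to 18.6 CPM with a median of 13.9. KO embryo 2 was the highest of the 16. The other KO embryos lay within the WT range, and KO embryos 1, 3 and 5 lay below every HET embryo. The KO over WT log2 fold change was 0.08 ± 0.15 (95% interval -0.24 to 0.39). The intervals of Ngfr (-1.92 to -1.2) and Ntrk3, receptors of the same ligand family, did not meet.

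**Figure D2:**
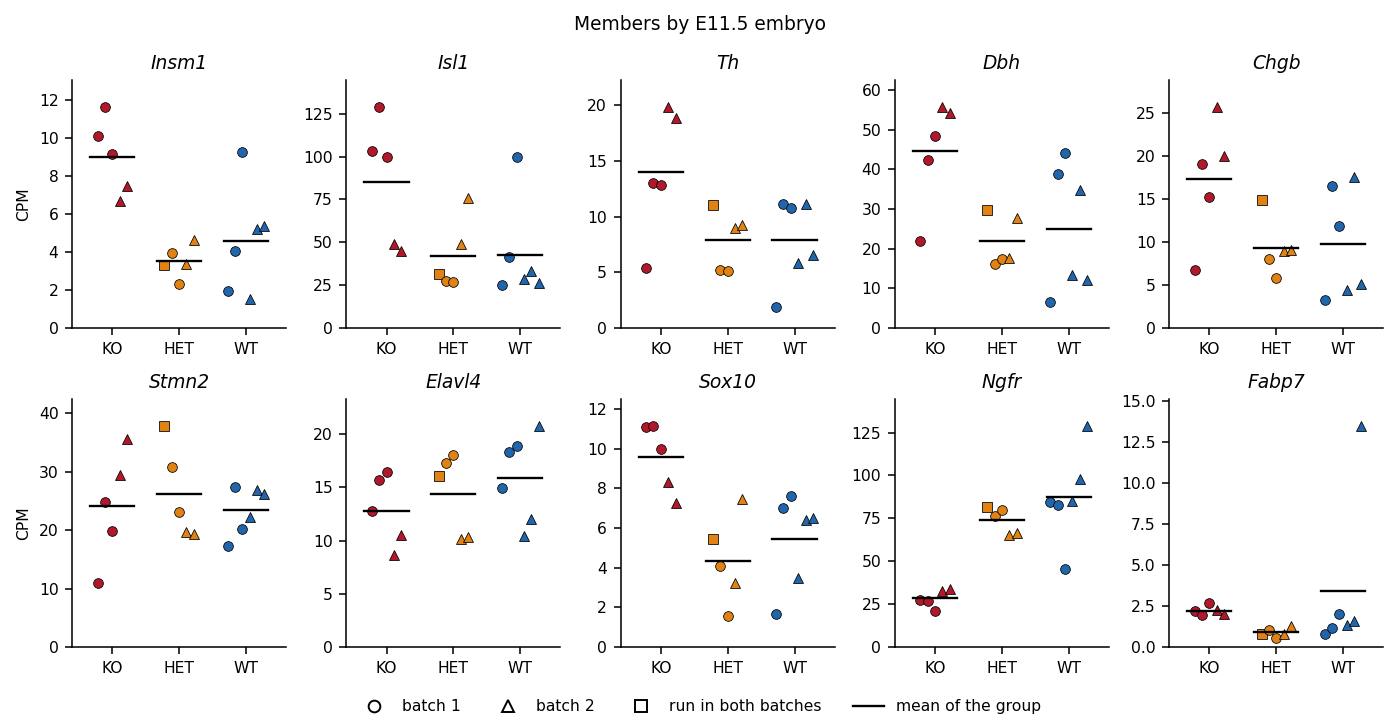
CPM of 10 genes in each E11.5 embryo, with KO left of HET and WT; bars are group means, circles are batch 1, triangles batch 2 and the square is the embryo run in both. Ngfr is the gene whose 5 KO values (20.9 to 33.9 CPM) lie wholly apart from WT, and WT embryo 6 stands alone in Fabp7 at 13.5 CPM.

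The sympathetic transcription factors had positive fold changes without passing the test. Insm1, a zinc-finger factor needed for sympathoadrenal cells to proliferate and mature, measured 10.1, 11.6, 9.12, 6.68 and 7.44 CPM in KO embryos. HET embryos had 3.33, 3.93, 2.34, 3.34 and 4.64 CPM, and WT embryos 1.53 to 9.26 CPM with a median of 4.62. All 5 KO embryos exceeded all HET embryos, and of the WT embryos only embryo 3 reached into the KO range. The log2 fold change was 0.90 ± 0.29 for KO over WT (edgeR adjusted p = 0.074) and 1.07 ± 0.32 for KO over HET (edgeR adjusted p = 0.0803). Insm1 lies on chromosome 2 at 146221921 to 146225020, plus strand. Insm1 passed the test in KO over WT where no low-count filter was used (adjusted p = 0.0271), in DESeq2 (adjusted p = 0.0246) and without WT embryo 3 (adjusted p = 0.0171, log2 fold change 1.2).

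Isl1, a LIM homeodomain factor of sympathetic and sensory neurons, measured 103.5, 129.0, 99.5, 48.9 and 44.8 CPM in KO embryos. HET embryos had 31.7, 27.7, 26.8, 48.9 and 75.6 CPM, and WT embryos 24.8 to 99.7 CPM with a median of 30.9. The 3 KO embryos of batch 1 were at or above 99.5 CPM and the 2 of batch 2 at or below 48.9 CPM, and WT embryo 3 lay within the range of the batch 1 KO embryos. The log2 fold change of KO over WT was 0.80 ± 0.30 (edgeR adjusted p = 0.13), with 0.80 in batch 1 and 0.76 in batch 2. KO over HET gave 0.57, with 1.21 in batch 1, where KO embryos were all female and HET embryos all male, and 0.03 in batch 2. Without WT embryo 3 Isl1 was called higher, at 1.15 (adjusted p = 0.0243).

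Phox2a, a paired-type homeodomain factor that switches on the noradrenaline enzymes, measured 3.33, 5.04, 8.26, 6.73 and 5.11 CPM in KO embryos. HET embryos had 3.36, 2.14, 2.13, 1.99 and 3.06 CPM, and WT embryos 1.28 to 5.88 CPM with a median of 3.296. All 5 KO embryos lay above the WT median and 2 of them above the highest WT embryo. Hand2, a basic helix-loop-helix partner of the Phox2 factors, measured 15.01, 18.3, 14.4, 13.5 and 14.4 CPM in KO embryos. HET embryos had 7.45, 6.48, 3.85, 7.58 and 9.15 CPM, and WT embryos 2.79 to 19.0 CPM with a median of 8.69. The KO embryos exceeded all HET embryos, but WT embryo 3 was the highest of all. KO over WT gave 0.72 ± 0.37 for Phox2a (edgeR adjusted p = 0.299) and 0.71 ± 0.35 for Hand2 (edgeR adjusted p = 0.273).

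Th, the rate-limiting enzyme of catecholamine synthesis, measured 5.43, 13.0, 12.8, 19.9 and 18.8 CPM in KO embryos. HET embryos had 11.02, 5.17, 5.08, 8.97 and 9.28 CPM, and WT embryos 1.85 to 11.2 CPM with a median of 8.68. Dbh, which turns dopamine into noradrenaline, measured 21.9, 42.3, 48.3, 55.8 and 54.3 CPM in KO embryos. HET embryos had 29.8, 16.2, 17.5, 17.8 and 27.9 CPM, and WT embryos 6.62 to 44.2 CPM with a median of 24.1. For both enzymes 4 KO embryos lay above the WT median and KO embryo 1 below it. The log2 fold change of KO over WT was 0.82 ± 0.34 for Th (edgeR adjusted p = 0.185) and 0.84 ± 0.39 for Dbh (edgeR adjusted p = 0.238). In batch 1 alone these were 0.63 for Th and 0.50 for Dbh, and in batch 2 alone 1.33 for Th and 1.51 for Dbh.

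Within the KO group Isl1, which made up most of the sum of the 4 factors, and the enzymes were highest in different embryos. The 4 factors summed to 131.9, 164.0 and 131.3 CPM in KO embryos 1 to 3, all batch 1, and to 75.8 and 71.7 CPM in embryos 4 and 5, both batch 2. The 2 enzymes summed to 27.4, 55.3 and 61.2 CPM in embryos 1 to 3 and to 75.6 and 73.1 CPM in embryos 4 and 5. The other factors did not all follow Isl1. Means of batch 1 and batch 2 KO embryos were 5.54 and 5.92 CPM for Phox2a, 15.9 and 14.0 CPM for Hand2, and 10.3 and 7.06 CPM for Insm1. Batch moves with both sums here, and its part in them was not tested.

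**Figure D3:**
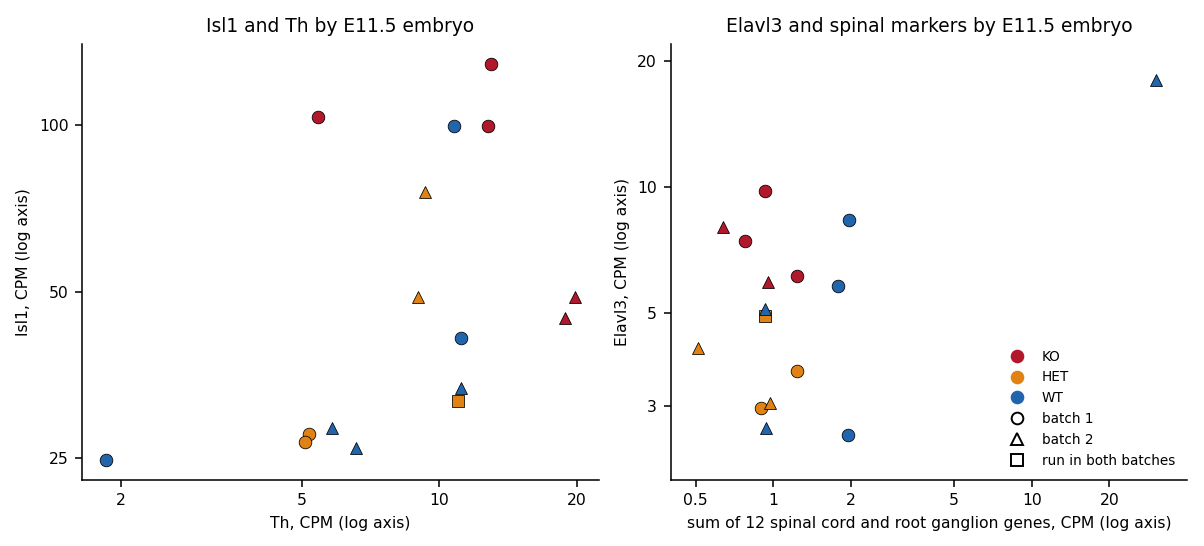
Left, Isl1 against Th in CPM for each of the 16 E11.5 embryos, both axes logarithmic; KO embryos of batch 1 reach 129.0 CPM of Isl1 and those of batch 2 reach 19.9 CPM of Th. Right, Elavl3 against the sum of 12 spinal cord and dorsal root ganglion genes, both axes logarithmic; WT embryo 6 stands alone at 30.2 CPM on the horizontal axis.

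Chga and Chgb, the granins of dense-core secretory granules, had positive fold changes like the enzymes and did not pass the test. Chga measured 2.56, 9.49, 7.89, 23.2 and 11.6 CPM in KO embryos. HET embryos had 14.1, 3.63, 3.64, 3.85 and 3.71 CPM, and WT embryos 0.795 to 11.1 CPM with a median of 6.02. KO embryo 4 was the highest of the 16 and HET embryo 1 stood apart from its group. Chgb measured 6.71, 19.1, 15.2, 25.7 and 19.99 CPM in KO embryos. HET embryos had 14.8, 8.03, 5.77, 8.93 and 9.10 CPM, and WT embryos 3.27 to 17.6 CPM with a median of 8.48. KO over WT gave 0.87 ± 0.51 for Chga (edgeR adjusted p = 0.369), 0.43 without KO embryo 4 and 1.18 without WT embryo 3, and 0.84 ± 0.41 for Chgb (edgeR adjusted p = 0.267). Cartpt, a peptide precursor, was under 1 CPM in all 16 embryos and gave 0.24 ± 0.55.

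The promoters of Th, Dbh, Chga and Chgb are shown with that of Ngfr, the first 4 as genes with close fold changes and the last as the gene called lower. They come from RefSeq (GRCm38.p6), 250 bases before to 50 bases after the start, 5′ to 3′ on the gene's strand. Capitals mark TGACGTNA, the letters of a cyclic AMP response element, and CAGCTG, an E-box, each searched on both strands. The windows are Th chr7:142899946-142900245 (minus), Dbh chr2:27165257-27165556 (plus), Chga chr12:102554691-102554990 (plus), Chgb chr2:132781392-132781691 (plus) and Ngfr chr11:95587649-95587948 (minus).
Th: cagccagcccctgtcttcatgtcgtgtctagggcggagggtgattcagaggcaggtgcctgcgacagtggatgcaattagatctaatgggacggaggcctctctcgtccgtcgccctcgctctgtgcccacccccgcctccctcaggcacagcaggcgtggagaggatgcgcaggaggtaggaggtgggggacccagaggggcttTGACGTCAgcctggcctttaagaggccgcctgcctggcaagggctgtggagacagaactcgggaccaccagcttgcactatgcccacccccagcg
Dbh: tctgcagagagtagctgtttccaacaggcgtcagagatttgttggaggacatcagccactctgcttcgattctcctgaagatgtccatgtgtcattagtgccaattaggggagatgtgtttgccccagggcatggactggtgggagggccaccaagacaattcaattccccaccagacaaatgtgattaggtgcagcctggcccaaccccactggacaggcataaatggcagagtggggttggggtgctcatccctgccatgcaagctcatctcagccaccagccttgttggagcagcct
Chga: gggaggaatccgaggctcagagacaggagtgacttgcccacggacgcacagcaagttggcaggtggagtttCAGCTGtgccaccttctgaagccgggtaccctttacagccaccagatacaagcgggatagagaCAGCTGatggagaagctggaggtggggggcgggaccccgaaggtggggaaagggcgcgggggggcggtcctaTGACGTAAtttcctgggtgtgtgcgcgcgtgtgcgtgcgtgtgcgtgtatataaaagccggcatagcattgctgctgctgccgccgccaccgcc
Chgb: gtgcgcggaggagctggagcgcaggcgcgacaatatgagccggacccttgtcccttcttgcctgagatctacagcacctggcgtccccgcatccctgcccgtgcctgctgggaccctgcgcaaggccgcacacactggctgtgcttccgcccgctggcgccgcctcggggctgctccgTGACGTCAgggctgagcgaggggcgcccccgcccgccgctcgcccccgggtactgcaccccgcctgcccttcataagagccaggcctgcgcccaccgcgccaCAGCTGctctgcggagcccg
Ngfr: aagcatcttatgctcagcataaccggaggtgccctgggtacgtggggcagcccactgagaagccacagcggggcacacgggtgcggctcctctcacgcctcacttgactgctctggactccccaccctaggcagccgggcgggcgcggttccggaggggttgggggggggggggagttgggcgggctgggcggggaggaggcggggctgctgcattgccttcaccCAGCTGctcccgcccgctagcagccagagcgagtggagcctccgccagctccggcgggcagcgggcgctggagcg

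TGACGTNA begins 45 bases before the start in Th, 44 in Chga and 72 in Chgb, and these letters are in neither the Dbh nor the Ngfr window. The Dbh window holds neither string. Isl1, Phox2a and Hand2 had KO over WT log2 fold changes near those of Th, Dbh, Chga and Chgb (0.80, 0.72 and 0.71). Their windows are not shown and hold no TGACGTNA. Of the 28 genes, 18 were matched in the RefSeq table; 5 of the 18 hold TGACGTNA (Th, Chga, Chgb, Cartpt and Foxd3), against 3.08% of all 27025 promoters, and 5 hold CAGCTG (Isl1, Chga, Chgb, Elavl3 and Ngfr), against 16.1%. TCAGGTT, a string that proteins of the Six2 family are known to bind, is in 4.04% of all promoters and in none of the 18. These were among 10 strings searched, and the 2 in capitals were picked after the matches were seen.

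None of the general neuronal genes passed the test, and 5 of 6 fold changes were positive. Tubb3, the neuronal beta-tubulin, measured 32.7, 49.98, 53.3, 47.4 and 51.0 CPM in KO embryos. HET embryos had 24.4, 17.9, 15.04, 22.01 and 39.0 CPM, and WT embryos 12.1 to 92.5 CPM with a median of 31.7. All 5 KO embryos lay above the WT median but WT embryo 6 was far above every one. The KO over WT log2 fold change of Tubb3 was 0.34 ± 0.35 (edgeR adjusted p = 0.653), 0.72 without WT embryo 6 and 0.15 without WT embryo 1.

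Stmn2, a tubulin-binding protein of growing axons, measured 10.96, 24.8, 19.9, 29.4 and 35.5 CPM in KO embryos. HET embryos had 37.8, 30.8, 23.1, 19.6 and 19.3 CPM, and WT embryos 17.3 to 27.3 CPM with a median of 24.2. The KO embryos lay on both sides of the WT range, and KO over WT gave 0.09 ± 0.19 (95% interval -0.32 to 0.49). Elavl4, a neuronal RNA-binding protein, measured 12.8, 15.7, 16.5, 8.69 and 10.5 CPM in KO embryos. HET embryos had 16.04, 17.3, 18.1, 10.2 and 10.4 CPM, and WT embryos 10.5 to 20.8 CPM with a median of 16.6. Elavl4 had the opposite sign to the sympathetic genes, at -0.39 ± 0.16 (edgeR adjusted p = 0.182; unadjusted p = 0.0287), and in all 3 genotypes the embryos run only in batch 2 included its lowest values.

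Gap43, a growth cone protein, measured 30.8, 47.8, 51.9, 58.1 and 57.6 CPM in KO embryos, 38.3, 28.4, 28.3, 31.4 and 42.1 CPM in HET embryos, and 20.3 to 45.5 CPM with a median of 36.9 in WT embryos. KO embryos 2 to 5 lay above the highest WT embryo and KO embryo 1 below the WT median, and KO over WT gave 0.50 ± 0.20 (edgeR adjusted p = 0.159). Stmn3, of the same family as Stmn2, gave 0.41 ± 0.38, and Elavl3, a relative of Elavl4, gave 0.09 ± 0.38. Elavl3 ran from 5.95 to 9.80 CPM in KO embryos, from 2.97 to 4.92 CPM in HET embryos and from 2.56 to 18.1 CPM in WT embryos, so that KO and HET embryos did not overlap but WT embryos spanned both.

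Among the filaments, Prph, peripherin of peripheral neurons, gave 0.72 ± 0.42 in KO over WT at 1.02 to 2.86 CPM in KO embryos, 0.275 to 1.67 CPM in HET embryos and 0.265 to 1.76 CPM in WT embryos. Nefl, the light neurofilament chain, measured 24.02, 39.6, 39.1, 41.6 and 37.3 CPM in KO embryos. HET embryos had 24.3, 18.3, 16.2, 19.9 and 22.8 CPM, and WT embryos 10.1 to 38.9 CPM with a median of 25.6. KO embryos 2 to 5 lay above every HET embryo and KO embryo 1 just below the highest of them. Nefl gave 0.51 ± 0.24 (edgeR adjusted p = 0.236) and Nefm, the medium chain, 0.36 ± 0.25 (edgeR adjusted p = 0.46). The 2 gene models overlap on opposite strands of chromosome 14, and whether reads were counted by strand is not given in the sources used here, so reads in the overlap cannot be assigned to one of them. Nefh, the heavy chain of mature large axons, was under 1 CPM in all 16 embryos and gave -0.39 ± 0.30. Of the release genes, Syt1, the calcium sensor of vesicles, gave 0.49 ± 0.29, and Snap25, a SNARE protein, 0.09 ± 0.27.

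Of the glial genes, Sox10, the HMG-box factor that maintains crest and Schwann cell precursors, measured 11.1, 11.1, 9.99, 8.30 and 7.27 CPM in KO embryos. HET embryos had 5.44, 4.10, 1.58, 3.22 and 7.47 CPM, and WT embryos 1.68 to 7.596 CPM with a median of 6.46. Only KO embryo 5 lay within the WT range, and WT embryo 1 was the lowest WT. The log2 fold change of KO over WT was 0.74 ± 0.33 (edgeR adjusted p = 0.221), with 1.15 in batch 1 and 0.59 in batch 2. Erbb3, the neuregulin receptor of Schwann cells, measured 44.7, 37.8, 40.7, 41.1 and 42.9 CPM in KO embryos. HET embryos had 31.7, 42.4, 39.97, 33.3 and 44.3 CPM, and WT embryos 17.1 to 59.8 CPM with a median of 31.5. All 5 KO embryos lay above every WT embryo except embryo 6, and without that embryo Erbb3 was called higher, at 0.52 (edgeR adjusted p = 0.0436), against 0.29 ± 0.20 with it. Without WT embryo 1, the lowest in Erbb3, the value was 0.13. Foxd3, a factor of early crest, ran from 1.16 to 1.96 CPM in KO, 0.343 to 1.02 CPM in HET and 0.353 to 3.07 CPM in WT embryos. S100b, a calcium-binding protein of later glia, was under 1 CPM throughout.

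Fabp7, a fatty-acid-binding protein of radial glia and Schwann cell precursors, had 1 embryo far above the rest. It measured 2.20, 1.94, 2.71, 2.24 and 2.03 CPM in KO embryos. HET embryos had 0.833, 1.07, 0.549, 0.804 and 1.30 CPM, and WT embryos 0.795 to 13.5 CPM with a median of 1.47. The 13.5 CPM belonged to WT embryo 6, and the next WT embryo had 2.02 CPM. The KO over WT log2 fold change was -0.37 ± 0.54, and 0.46 without WT embryos 1 and 6, a pair left out after the data were seen.

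WT embryo 6 also had 10 of 12 genes of spinal cord and dorsal root ganglion above 2 times the highest of the other 15 embryos. Their sum was 0.639 to 1.23 CPM in KO embryos and 0.511 to 1.24 CPM in HET embryos, against 0.93 to 1.96 CPM in WT embryos 1 to 5 and 30.2 CPM in WT embryo 6. Pax6, a factor of the neural tube, was at 6.89 CPM in that embryo, and Pou4f1, a factor of sensory neurons, at 5.47 CPM. Olig2 and Mnx1, factors of motor neurons and their progenitors, were at 0.378 and 0.85 CPM in that embryo. Both were at 0 in all KO embryos and had a median of 0 in HET and WT embryos as well. The same embryo was the highest of the 16 in 7 of the 28 genes, Tubb3, Elavl3, Elavl4, Ngfr, Foxd3, Erbb3 and Fabp7, and low in Hand2 (2.79 CPM) and Dbh (12.04 CPM). Leaving the embryo out moved the median KO over WT log2 fold change of the tested genes to 0.59.

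**Figure D4:**
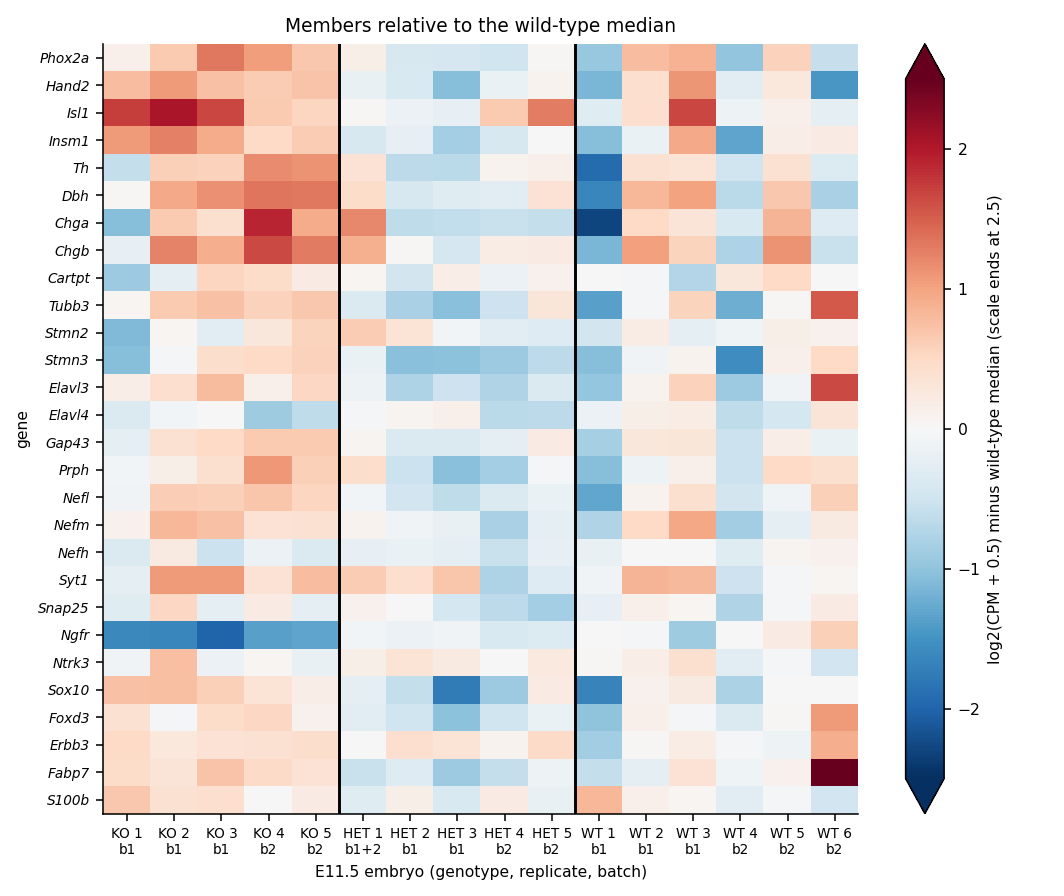
Each of the 28 genes in each E11.5 embryo as log2(CPM + 0.5) minus the WT median of that gene, with KO left of HET and WT. The Ngfr row is low in all 5 KO embryos, WT embryo 1 is low in most rows, and WT embryo 6 is high in Tubb3, Elavl3, Foxd3 and Fabp7.

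Whether the members changed by 1 factor was measured by ratios within an embryo, in which depth and scaling cancel. For 16 pairs, the log2 ratio of the counts (0.5 added to each) was compared between 5 KO and 6 WT embryos by an exact two-sided permutation test over all splits, whose smallest p is 0.00216. These splits ignore batch. With genotypes permuted within batch (200 splits, added after the results were seen), no pair passed either. No pair passed after adjustment over the 16. Ngfr over Sox10 came closest, at 1.57 ± 0.50 in KO and 4.10 ± 1.03 in WT embryos (SD, n = 5 and 6), a difference of -2.53 (exact permutation p = 0.00433, adjusted p = 0.0693; within batch, exact permutation p = 0.005, adjusted p = 0.08). The KO ratios of this pair lay between 1.06 and 2.22 and the WT ratios between 2.57 and 5.62, with no overlap, and the difference was -2.70 in batch 1 and -2.18 in batch 2.

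Stmn2 over Th differed by -0.95 in KO embryos (0.81 ± 0.20, against 1.76 ± 0.82 in WT; exact permutation p = 0.0281, adjusted p = 0.208), and by -0.94 in batch 1 and -0.99 in batch 2. Elavl4 over Th differed by -1.22 (exact permutation p = 0.0801), Erbb3 over Sox10 by -0.58 (exact permutation p = 0.0866), and Gap43 over Stmn2 by 0.56 (exact permutation p = 0.039, adjusted p = 0.208). Fabp7 over Sox10 differed by -0.77, Fabp7 over Th by -0.73, Nefm over Stmn2 by 0.56, Tubb3 over Th by -0.28 and Prph over Th by -0.09. Without WT embryo 6 these differences were, in the same order, -0.30, -0.17, 0.57, 0.055 and 0.075. Pairs of sympathetic genes differed by 0.17 or less: Dbh over Th by 0.17, Chgb over Th by 0.08, Hand2 over Phox2a by 0.07 and Phox2a over Th by 0.04. Sox10 over Th differed by 0.04 over all embryos and had opposite signs in the batches, 0.59 in batch 1 and -0.80 in batch 2, and Isl1 over Phox2a, at 0.13, had 0.68 in batch 1 and -0.70 in batch 2.

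KO over HET kidneys ask what loss of the second copy adds. Of 27 genes tested 24 were positive, with a median of 0.87, against -0.00 over all genes; none was called higher and Ngfr was called lower, where 3.69% of 16141 genes were called, 0.892% higher and 2.79% lower. At an unadjusted p under 0.05 there were 16 of the 27, where 18.5% of all genes tested were. The KO embryos lay wholly above the HET embryos in 6 genes, Insm1, Foxd3, Hand2, Elavl3, Fabp7 and Nefm, where 1.5% of all genes did so. No gene of the 27 lay wholly above WT in KO embryos, where 1.23% of all genes did. Without WT embryos 1 and 6, which are neither KO nor HET but enter the shared fit and its gene filter (16214 genes tested, against 16141), 5.99% of all genes were called and 6 of the 27 were called higher: Insm1, Foxd3, Hand2, Elavl3, Fabp7 and Nefl. This comparison shares its KO embryos with KO over WT, and no overlap of the 2 is counted.

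HET over WT kidneys at E11.5 gave no call among 27 genes tested by edgeR or DESeq2, where edgeR called 0.0681% of all genes, 0.0124% higher and 0.0558% lower; no gene of the 27 separated the groups, as 0.204% did upward and 0.229% downward. Fold changes were negative for 24, with a median of -0.26 against 0.01 over all genes. That median was -0.11 without HET embryo 4, -0.46 without WT embryo 4 and -0.08 without the libraries over 5% ribosomal counts. An unadjusted p under 0.05 was found for 1 gene, where 8.25% of all genes had one: Fabp7 at -1.49 ± 0.60, which was -0.58 without WT embryo 6. Ngfr gave -0.28 ± 0.17 (95% interval -0.63 to 0.07). In batch 2 alone 11 of 27 were positive, and without those ribosomal-rich libraries also 11.

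At E15.5 the sympathetic genes were near the lower limit in both genotypes: Phox2a, Hand2, Isl1, Insm1, Th, Dbh, Cartpt and Foxd3 were too low to test, leaving 20. Of these, 2 were called higher in HET over WT kidneys and none lower, where 0.57% of 18244 genes were called, 0.208% higher and 0.362% lower. Both were the neurotrophin receptors. Ntrk3, on chromosome 7 at 78175959 to 78738012 (minus strand), measured 8.62, 8.18, 8.26 and 8.58 CPM in HET specimens and 6.38, 5.50, 6.76 and 6.47 CPM in WT specimens. Ngfr measured 49.4, 52.6, 49.6 and 55.2 CPM in HET specimens and 44.8, 47.4, 43.1 and 46.7 CPM in WT specimens. Neither gene overlapped between genotypes, where 2.92% of all genes were higher without overlap and 2.21% lower.

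Ntrk3 gave 0.41 ± 0.06 (edgeR adjusted p = 0.0115), in which HET specimens averaged 8.41 ± 0.22 CPM and WT specimens 6.28 ± 0.55 CPM (SD, n = 4 each). Ngfr gave 0.18 ± 0.03 (edgeR adjusted p = 0.0358), with averages of 51.7 ± 2.73 CPM in HET and 45.5 ± 1.97 CPM in WT (SD, n = 4 each). The Ngfr call was lost in 7 of 8 fits that left out 1 specimen (adjusted p up to 0.188), and neither gene passed in the batch 2 runs alone, at 0.39 for Ntrk3 and 0.20 for Ngfr. Ngfr was lower in KO kidneys at E11.5 and slightly higher in HET kidneys at E15.5. The HET effect on it differed by 0.43 ± 0.21 between E15.5 and E11.5, which was not called (edgeR adjusted p = 1), and none of the 28 genes was called for that difference by edgeR, which called 0.00576% of all genes, all of them lower. Fabp7 alone had an unadjusted p under 0.05 (1.76 ± 0.71).

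**Figure D5:**
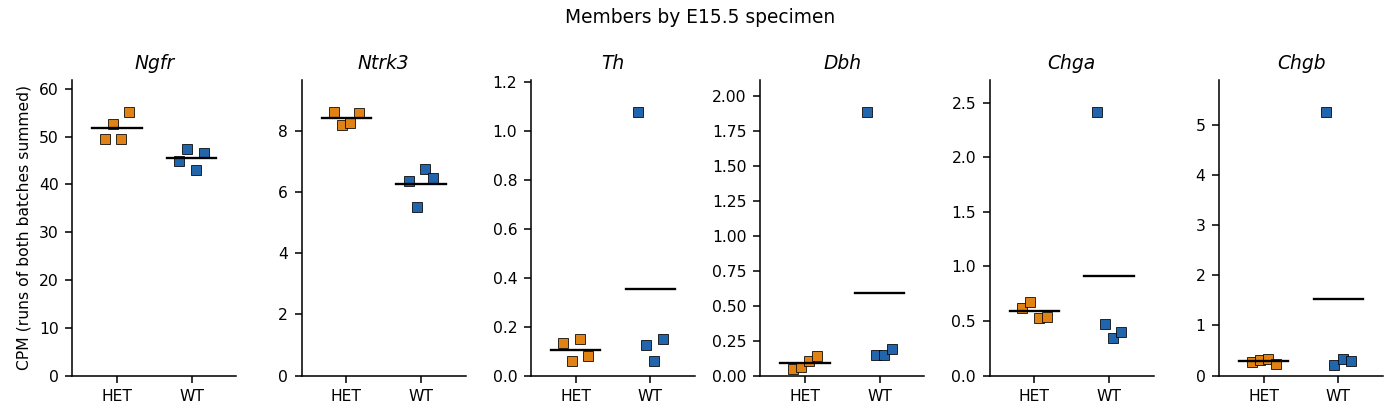
CPM of 6 genes in each E15.5 specimen, HET left of WT, with group means as bars. Ngfr and Ntrk3 do not overlap between genotypes, while the WT mean of Th, Dbh, Chga and Chgb rests on WT specimen 5, at 1.08, 1.88, 2.42 and 5.26 CPM.

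The few counts of Th, Dbh and Chgb at E15.5 came largely from WT specimen 5. HET specimens had 0.05 to 0.143 CPM of Dbh and 0.225 to 0.333 CPM of Chgb. WT specimen 5 had 1.88 CPM of Dbh and 5.26 CPM of Chgb, while the other 3 WT specimens had 0.144 to 0.193 CPM of Dbh and 0.206 to 0.331 CPM of Chgb. WT specimen 5 was the highest WT specimen in 18 of the 28 genes. The 4 sympathetic factors were also highest there, 1 of them by more than 2 times the next. So were 2 of 7 adrenal cortex genes, 4 of 8 gut and liver genes and 4 of 7 macrophage genes. The HET over WT fold change of Chgb, -2.38 ± 0.98 (unadjusted p = 0.0321, edgeR adjusted p = 0.552), rests on that specimen.

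Most of the 28 genes were lower in the later kidney. In WT kidneys at E15.5 over E11.5, 23 were called lower and 2 higher of 28 tested, where 66.1% of 17362 genes were called, 32.1% lower and 34% higher. All 4 sympathetic factors fell, at -7.94 ± 0.54 for Isl1, -6.36 ± 0.53 for Insm1, -5.72 ± 0.59 for Hand2 and -4.76 ± 0.50 for Phox2a. Dbh fell by 5.46 ± 0.64 and Th by 4.6 ± 0.57, and Tubb3 by 4.46 ± 0.45. At E15.5 Isl1 was at 0.0412 to 0.209 CPM, against 24.8 to 99.7 CPM at E11.5. The smallest called falls were those of Elavl4 (-0.64 ± 0.15), Ngfr (-0.96 ± 0.16), Syt1 (-0.97 ± 0.28) and Ntrk3 (-1.11 ± 0.15). The Syt1 call did not pass in batch 2 alone (-0.76, edgeR adjusted p = 0.0533) or without ribosomal-rich libraries (-0.68, edgeR adjusted p = 0.146). Erbb3 rose by 0.74 ± 0.18 and S100b by 1.06 ± 0.36, while Prph, Nefh and Fabp7 did not pass, at -0.49, -0.08 and -0.80. S100b did not pass in batch 1 alone (0.26, edgeR adjusted p = 0.584), and Fabp7 was called lower in batch 2 alone (-1.58, edgeR adjusted p = 0.0382) and without ribosomal-rich libraries (-1.68, edgeR adjusted p = 0.0349). Mean levels per kilobase had another order, with Ngfr, Erbb3 and Gap43 the highest at E15.5 (13.2, 9.31 and 5.27 CPM per kb) and Ngfr, Gap43 and Tubb3 at E11.5 (25.4, 22.8 and 20.3 CPM per kb). Stage cannot be fully told apart from sequencing, and counts are relative to all RNA of a kidney that has other cell types at E15.5.

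Other genes of the same tissues, from lists chosen with earlier results known, gave in KO over WT kidneys at E11.5 no call among 12 sympathoadrenal genes (11 positive, median 0.42). Of 11 Schwann cell and crest genes tested, 3 were called higher and 1 lower (median 0.26). Gfra3, the artemin receptor of sympathetic precursors, rose by 0.81 ± 0.15 (edgeR adjusted p = 0.003), with 44.6 to 56.9 CPM in KO and 20.5 to 36.1 CPM in WT embryos and no overlap. Ednrb, the endothelin receptor of migrating crest, rose by 0.43 ± 0.12 (edgeR adjusted p = 0.0445), and Mbp, a myelin protein, fell by 0.48 ± 0.12 (edgeR adjusted p = 0.0221). Of 15 general neuronal genes 1 was called, Dcx, doublecortin of migrating neurons, which fell by 2.27 ± 0.34, with 3.94 to 6.39 CPM in KO embryos, against 14.1 to 35.6 CPM in WT embryos (edgeR adjusted p = 4.05e-04). Dcx was lower in HET kidneys at E15.5 as well, at -0.61 ± 0.06 (edgeR adjusted p = 5.26e-04).

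Of the list of neurotrophins and guidance cues, 1 of 11 tested was called higher and 3 lower in KO over WT kidneys. Which cells of the whole kidney carried these transcripts was not tested. Gdnf, the ligand of Ret with its co-receptor Gfra1, fell by 1.02 ± 0.15 (edgeR adjusted p = 4.21e-04), and Nrtn, its relative neurturin, by 1.36 ± 0.24 (edgeR adjusted p = 0.00209). Sema3c, a secreted guidance cue, rose by 0.50 ± 0.07 (edgeR adjusted p = 2.49e-04). Ntf3, the ligand of Ntrk3, was at -0.09 ± 0.09. Of 6 enteric list genes tested, Gfra2, the neurturin co-receptor, rose by 0.61 ± 0.16 (edgeR adjusted p = 0.0276) and Gfra1 fell by 0.85 ± 0.13 (edgeR adjusted p = 6.75e-04). In KO over HET kidneys Gdnf and Nrtn were called lower too, at -1.08 ± 0.16 and -1.04 ± 0.26, and Gfra3 and the vesicular monoamine transporter Slc18a2 higher, at 0.61 ± 0.16 and 0.60 ± 0.14.

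Markers of other cells moved beside these genes. Of the nephron progenitor list 9 of 10 were called lower in KO over WT kidneys (sums of 421.4 to 537.6 CPM in KO and 955.7 to 1459.3 CPM in WT embryos), led by Six2, Crym and Spock2. Of 7 macrophage genes 6 were called higher, led by Mrc1, Csf1r and Cx3cr1 (85.2 to 181.5 CPM in KO and 54.8 to 111.0 CPM in WT embryos). Of adrenal cortex genes 1 of 4 tested was called, Mc2r, lower. Nr5a1, the steroidogenic factor of that tissue, was at 1.92 ± 0.63 without passing (edgeR adjusted p = 0.0786; 0.432 to 3.97 CPM in KO and 0 to 0.516 CPM in WT embryos). The 3.97 CPM belonged to KO embryo 2, the next KO embryo had 0.973 CPM, and HET embryos reached 1.90 CPM. The list had sums of 5.75 to 12.4 CPM in KO and 6.23 to 12.4 CPM in WT embryos. The spinal cord list had 0 genes with enough counts to test. Of 10 ureteric bud genes 3 were called higher and 2 lower (Etv4, Etv5 and Calb1 moved most), of 8 stroma genes 1 higher (Tbx18) and 1 lower (Ntn1), of 3 muscle and cartilage genes 1 higher (Tnnt3), and none of the gut and liver list could be tested. The part of these cells in the members' fold changes was not tested.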

How the data were processed

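RNA from snap-frozen whole kidneys was sequenced as standard Illumina libraries, per the labels' protocols. The deposited values are raw read counts per gene symbol with a length column; STAR 2.4.0h1, featureCounts 1.4.6 and mm10 are named, per the submitters' processing notes, while annotation, strand setting and multi-mapping are not given in the sources used here. Counts per library were 10819256 to 42073021, and 0 columns lacked a sample.

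Runs of 1 specimen were summed (24 specimens). edgeR 4.0.16 in R 4.3.3 kept genes by filterByExpr (minimum count 10, total 15), scaled by trimmed means of M values and tested with the quasi-likelihood F test, Benjamini-Hochberg adjusted at 0.05 over all genes tested. Covariates were sex and batch at E11.5 (1 fit of 3 genotypes), sex at E15.5, and both in a fit of all 24 specimens between stages. At E11.5 batch equals the replicate number in the titles, so it is the replicate block. SE is the log2 fold change over the square root of F, and intervals are 95%. CPM uses scaling factors over all 24 specimens. Ratio tests enumerated all splits of the embryos, and also splits within batch. Fits and permutation tests were checked on simulated data. Alternatives were DESeq2 1.42.0, other size factors, no filter, batches alone, title prefix as block, ribosomal-rich libraries left out and each specimen left out.

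All 28 members, Six2, 16 named pairs and, of each other list, up to 3 called genes with the largest change were to be named. Ntf3, as ligand of a member, and Nr5a1 were added after their values were seen. Some genes of the other lists are not reported here. The members, lists and pairs were chosen with earlier results of these data known.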

Additional observations from a re-analysis of the deposited data

Results flagged for a closer look

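Of 140 groups of 4 to 6 specimens, 17 held a value whose gap to its nearest neighbour took up more of the group's range than Dixon's 95% limit allows. Chance gives about 1 in 20 groups. No explanation was tested for any of them.

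WT specimen 5 at E15.5 held 6 of the 17, with the highest WT values of Th (1.08 CPM), Dbh (1.88 CPM), Chga (2.42 CPM), Chgb (5.26 CPM), Nefl (3.24 CPM) and Sox10 (0.596 CPM). WT embryo 6 at E11.5 held 3, Elavl3 at 18.1 CPM, Foxd3 at 3.07 CPM and Fabp7 at 13.5 CPM. KO embryo 1 was far below the other KO embryos in Tubb3 (32.7 CPM) and Nefl (24.02 CPM). Single values were high for Ntrk3 in KO embryo 2 (23.6 CPM), Chga in HET embryo 1 (14.1 CPM), Isl1 in WT embryo 3 (99.7 CPM), S100b in WT embryo 1 (0.971 CPM) and Nefm in WT specimen 7 at E15.5 (1.88 CPM), and low for Nefh in HET embryo 4 (0.296 CPM).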

How the results depend on the processing

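In KO over WT kidneys Ngfr was called lower under all 20 alternatives run; other members were called higher without a low-count filter (2, Insm1 and Isl1), in DESeq2 (1), without WT embryos 1 and 6 (1, chosen after seeing the data) and with 1 embryo left out (0 to 2). In KO over HET kidneys the counts called higher were 2, 1 and 6 under the same 3 settings, and Ngfr was not called in batch 1, batch 2 or with the prefix block (0 each). HET over WT at E15.5 had 0 calls in batch 2 runs, 1 to 2 with 1 specimen left out; the stage comparison had 1 called higher in batch 1.

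Without the replicate block (batch), 439 genes were called in KO over WT and 154 in KO over HET, against 1144 and 595 with it, with Ngfr called in both; batch 1 alone gave 265 and 7, batch 2 alone 168 and 56, and without ribosomal-rich libraries 349 and 299. Other size factors moved the log2 fold change of any tested member by at most 0.0134.

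Signs turned, with the cause not tested, in KO over WT for Snap25 (-0.0098 without ribosomal-rich libraries, -0.073 prefix block), Elavl3 (-0.11 without ribosomal-rich libraries, -0.17 batch 2), Stmn2 (-0.053 batch 1), Ntrk3 (-0.033 batch 1, -0.31 prefix block, -0.056 without WT 1 and 6), Syt1 (-0.50 prefix block), Nefm (-0.10 prefix block) and Fabp7 (0.65 batch 1, 0.44 prefix block, 0.46 without WT 1 and 6). In KO over HET they turned for Stmn2 (-0.20 batch 1), Syt1 (-0.58), Isl1 (-0.11) and Nefh (-0.081) with the prefix block, and Nefh (-0.13) without ribosomal-rich libraries. In HET over WT Erbb3 was -0.079 without ribosomal-rich libraries, -0.13 in batch 2 and -0.027 with the prefix block, and Elavl4 at E15.5 was 0.013 in batch 2. Between stages Fabp7 was 0.16 in batch 1 and Nefh 0.034 in batch 2. Ratios turned in batch 1 for Dbh/Th (-0.0026), Phox2a/Th (-0.10), Tubb3/Th (0.10), Prph/Th (0.18), Chgb/Th (-0.13) and Fabp7/Th (0.19), in batch 2 for Sox10/Th (-0.80), Isl1/Phox2a (-0.70) and Hand2/Phox2a (-0.14), and without ribosomal-rich libraries for Isl1/Phox2a (-0.0598) and Hand2/Phox2a (-0.017).

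With genotypes permuted within the replicate block (batch), 0 of 16 ratios passed, and signs turned for Phox2a/Th (-0.042), Sox10/Th (-0.11) and Isl1/Phox2a (-0.012).

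With 1 embryo left out, 16 of 27 fold changes in KO over WT and 10 of 27 in KO over HET moved by over 1.5 times or changed sign. KO over WT spanned -0.0598 to 0.21 for Snap25, -0.019 to 0.24 for Stmn2, -0.071 to 0.16 for Ntrk3, -0.11 to 0.60 for Elavl3, -0.62 to 0.62 for Fabp7 and -0.23 to 0.51 for Cartpt. KO over HET spanned -0.00997 to 0.22 for Stmn2, -0.18 to 0.15 for Nefh and -0.0235 to 0.75 for Cartpt. HET over WT at E15.5 spanned -0.95 to 0.54 for Chga and -0.061 to 0.0031 for Elavl4, and the stage change -1.12 to 0.10 for Fabp7 and -0.24 to 0.055 for Nefh. Ratios spanned -0.14 to 0.20 for Phox2a/Th, -0.47 to 0.055 for Tubb3/Th, -0.23 to 0.075 for Prph/Th, -0.046 to 0.20 for Chgb/Th, -0.33 to 0.27 for Sox10/Th, -0.15 to 0.37 for Isl1/Phox2a and -0.10 to 0.28 for Hand2/Phox2a. Genes under 1 CPM (Cartpt, Nefh, S100b and most sympathetic genes at E15.5) are limited by depth.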
